A study of Caenorhabditis elegans with 22 samples.

Results

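Adult N2 worms, the wild type of Caenorhabditis elegans, treated with serotonin or with loxapine, were compared whole, each group giving 3 RNA-seq libraries. These 6 libraries were taken, by the compound and the strain in their labels, from 22 libraries in all. The serotonin animals received 5 mM serotonin, which was dissolved in water, and the loxapine animals received 50 µM loxapine, which was dissolved in DMSO. All animals grew in liquid culture on X-ray-killed OP50 bacteria at 6 mg/ml, were sterilised as L4 larvae with 0.12 mM FUDR, a drug that blocks DNA synthesis, received their compound on day 1 of adulthood, and were collected 72 h later. DMSO was kept under 0.3%, per the labels' protocols. N2 with DMSO (5 libraries), the control of both compounds, stands outside the comparison: its levels are given beside those of the compounds, and it enters the estimate of the spread. The compounds differed in dose and in solvent as well as in kind, and for the differences below these cannot be told apart. Whether DMSO was added to the serotonin cultures too is not given in the sources, and an effect of the solvent was not tested.

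Serotonin is a monoamine transmitter that in C. elegans stimulates pharyngeal pumping and egg laying and acts through G protein-coupled receptors (SER-1, SER-4, SER-5 and SER-7) and the chloride channel MOD-1. Loxapine is a tricyclic antipsychotic drug that in mammals blocks dopamine and serotonin receptors. Worms meet foreign compounds with cytochrome P450 enzymes, which oxidise them, with UDP-glucuronosyltransferases (UGTs), which attach a sugar, and with ABC transporters, which move the products out of cells, and much of this takes place in the intestine.

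The 3 serotonin libraries held 39615466, 31371456 and 31950912 counts, and the 3 loxapine libraries held 37918172, 29369955 and 30876915 counts. Of 19598 genes, 16431 passed a filter on low counts and were tested. The replicate tags, which the labels call a batch, and the compounds both marked the libraries. On the first principal component, with 43.4% of the variance, replicate 1 lay at 60.6 for serotonin and 40.6 for loxapine, while replicate 3 lay at -35.8 for serotonin and -40.1 for loxapine. The second component, with 26.0%, held the compounds apart. There the serotonin libraries lay between 10.7 and 50.0 and the loxapine libraries between -37.1 and -16.8. By the median absolute log2 difference between libraries, serotonin replicates 1 and 2 were nearest to loxapine replicates 1 (0.209) and 2 (0.231). Serotonin replicate 3 was nearer to serotonin replicate 2 (0.318) than to loxapine replicate 3 (0.429). The closest libraries of all were loxapine replicates 2 and 3 (0.174). Markers of the tissues of a whole worm were present in both groups. The summed level of 46 body wall muscle genes was 6516 to 7604 CPM (counts scaled to the library size) with serotonin, 6661 to 8120 CPM with loxapine and 10338 to 12072 CPM with DMSO.

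**Figure D1:**
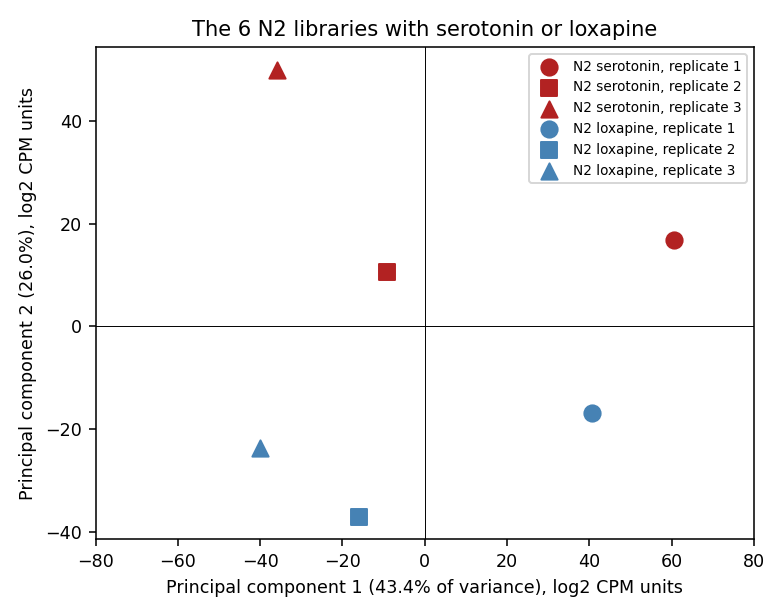
First and second principal components of log2 CPM in the 3 serotonin (red) and 3 loxapine (blue) libraries of N2, with the replicate number as the marker shape. Libraries with the same number lie at similar places on the horizontal axis, and all serotonin libraries lie above 0 and all loxapine libraries below 0 on the vertical axis.

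Several genes for the handling of foreign compounds were far lower with serotonin than with loxapine, by 16.3-fold in the P450 gene cyp-35B1, 300-fold in cyp-35B2 and 11.1-fold in the transporter gene pgp-13, and the aspartyl protease gene asp-12 was 12.2-fold higher. By edgeR's quasi-likelihood test with Benjamini-Hochberg adjustment, 90 genes were higher (0.548% of those tested) and 156 lower (0.949%) with serotonin than with loxapine at an adjusted p under 0.05. Of these, 15 were higher and 52 lower by over 2-fold. With the replicate tag as a block, 291 genes were higher (1.77%) and 605 lower (3.68%), and these included all 246 found without it. For comparison, all 3 serotonin libraries lay above all 3 loxapine libraries in 1117 genes (6.80%) and below them in 1282 genes (7.80%). An unadjusted p under 0.05 was reached by 3130 of the 16431 genes tested. Such counts in the gene lists below stand beside that share. The log2 fold change lay above 0 in 8679 of all genes tested and below 0 in 7752. Counts of list members above or below 0 stand beside that split.

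These counts rested heavily on single libraries. Without loxapine replicate 2 there were 5 higher and 28 lower genes, without loxapine replicate 3 there were 7 and 36, and without serotonin replicate 3 there were 24 and 91. Without serotonin replicate 1 there were 1141 and 296, without loxapine replicate 1 there were 387 and 524, and without serotonin replicate 2 there were 135 and 302. The spread was estimated over all 7 groups of the series, among them N2 with DMSO, where replicates 2 and 5, and 3 and 6, were near-duplicates (chi-square per degree of freedom of 4.94 and 3.86, against 56.3 to 140 within serotonin and 26.5 to 63.9 within loxapine). The groups of ser-7 mutants with serotonin (12.7 to 32.1) and ser-5 mutants with loxapine (11.9) were also tight. With DMSO these mutants gave 28.9 to 74.0 and 31.4 to 60.9. Leaving out N2 with DMSO thus does not remove every tighter group. Without the DMSO libraries 9 genes were higher and 68 lower, and with the 6 libraries alone 0 were higher and 8 lower, with 1272 genes at an unadjusted p under 0.05. DESeq2 gave 433 higher and 318 lower. The RLE scaling gave 84 and 81, so that the higher share of the calls was 50.9% in place of 36.6%. Of the 246 calls, 4 held under all 18 alternatives: cyp-35B1, cyp-35B2, cyp-35B3 and pgp-13.

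**Figure D2:**
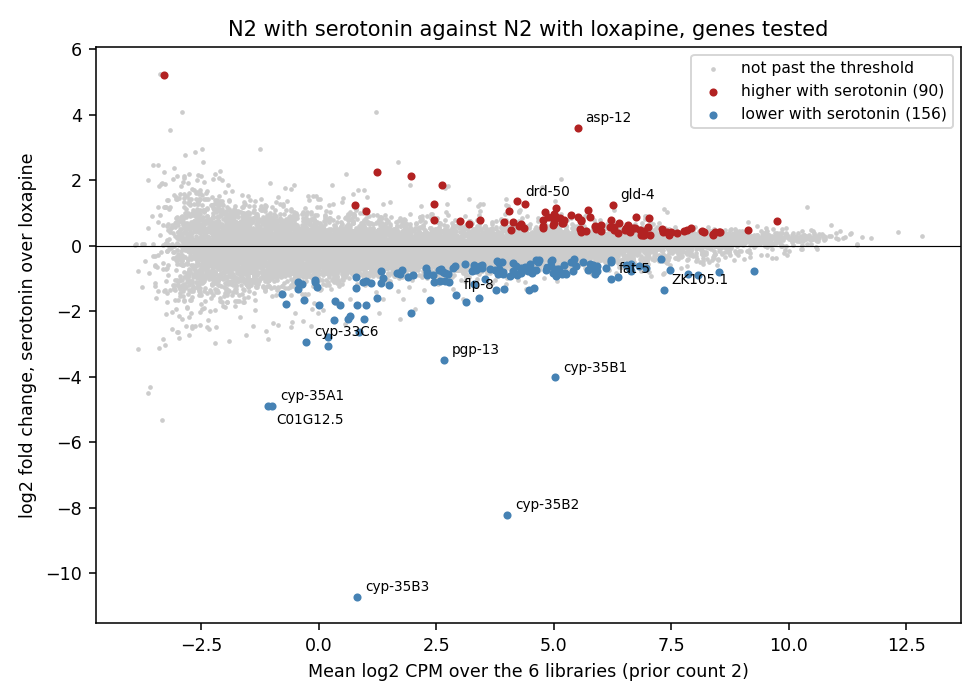
Log2 fold change of serotonin over loxapine against the mean log2 CPM of the 6 libraries, 1 point per gene tested, with the 90 genes past the threshold above 0 in red and the 156 below 0 in blue. The cyp-35B genes, cyp-35A1, C01G12.5 and pgp-13 are the 6 lowest blue points, and asp-12 stands apart among the red points.

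The lowest fold changes of all, those of cyp-35B3 and cyp-35B2, lay in a block of neighbouring P450 genes on chromosome V. The genes cyp-35A5, cyp-35B1, cyp-35B2 and cyp-35B3 follow each other there on the same strand, from position 3936326 to 3947044 (Ensembl release 115, WBcel235). The count of cyp-35B3 (V: 3945353 to 3947044) was 0, 1 and 1 in the serotonin libraries, against 1008, 1261 and 1837 in the loxapine libraries. In CPM, cyp-35B3 stood at 26.4, 40.2 and 56.1 with loxapine and at most 0.0360 with serotonin, and it reached 0.176 at most with DMSO. The gene was thus almost silent except with loxapine. The ratio of the summed counts, here loxapine over serotonin, was 2153 (exact 95% interval 596 to 17783, counting error only), and the adjusted p was 7.14e-09.

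Its neighbour cyp-35B2 (V: 3942160 to 3944523) had 1.28, 0.794 and 0.684 CPM with serotonin, against 236, 383 and 230 CPM with loxapine and 0.535 to 4.84 CPM with DMSO. The serotonin libraries lay within the DMSO range, and the loxapine libraries far above both. The log2 fold change was -8.23 ± 0.75 (SE, adjusted p = 2.47e-05), or 300-fold lower with serotonin. For cyp-35B1 (V: 3939032 to 3941237) the levels were 9.29, 8.83 and 6.44 CPM with serotonin, 132, 164 and 105 CPM with loxapine, and 14.0 to 38.6 CPM with DMSO. Here every serotonin library was below every DMSO library, and every loxapine library above. The log2 fold change was -4.02 ± 0.38 (adjusted p = 2.47e-05). In cyp-35A5 (V: 3936326 to 3938597), the first of the block, the levels were 0.435, 0.953 and 0.756 CPM with serotonin and 1.86, 3.00 and 2.66 CPM with loxapine (log2 fold change -1.82 ± 0.38, adjusted p = 0.0218). Its call ended without serotonin replicate 3 (adjusted p = 0.0623), loxapine replicate 2 (0.137) or loxapine replicate 3 (0.0922).

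The cyp-35 family did not move as one. Of its 10 members, all tested, 5 were lower and none was higher, with a median log2 fold change of -1.72 beside 0.03 over all genes, and with the replicate block 6 were lower. The remaining lower gene without the block was cyp-35A1 (V: 7359929 to 7361773), at 0.0768, 0.0635 and 0.0720 CPM with serotonin and 2.41, 3.38 and 0.855 CPM with loxapine (log2 fold change -4.89 ± 0.66, adjusted p = 0.000581). Its neighbour cyp-35A2 had 39.6, 59.6 and 31.7 CPM with serotonin and 47.8, 87.9 and 35.7 CPM with loxapine, against 14.2 to 25.7 CPM with DMSO (log2 fold change -0.39 ± 0.29, adjusted p = 0.477). The levels of both compounds overlapped, and all 6 libraries were above the DMSO range. In cyp-35C1 the compounds overlapped, at 10.7, 20.0 and 14.0 CPM with serotonin and 11.4, 21.6 and 8.98 CPM with loxapine, against 2.2 to 3.98 CPM with DMSO (log2 fold change 0.09 ± 0.31). The gene cyp-35A3 was lower only with the block (log2 fold change -1.63 ± 0.37, adjusted p = 0.0181, against 0.109 without it). The levels of cyp-35A4 and cyp-35D1 gave log2 fold changes of 0.33 ± 0.52 and -0.02 ± 0.41, and neither passed. How reads shared between such closely related genes were counted is not given in the sources used here, so levels of single members are uncertain to that extent.

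Other P450 genes followed with smaller differences. Among 64 tested, 3 were lower and none was higher, and with the block 14 were lower and none was higher. The median log2 fold change was -0.44, and 51 of the 64 lay below 0. All 3 belong to the cyp-33C group on chromosome V. The gene cyp-33C6 (V: 2247254 to 2249410) had 0.384, 0.191 and 0.252 CPM with serotonin and 1.49, 2.23 and 2.75 CPM with loxapine, and 0.238 to 0.353 CPM with DMSO. As for cyp-35B2, serotonin and DMSO overlapped and loxapine lay above both (log2 fold change -2.93 ± 0.41, adjusted p = 0.000765). Its neighbour cyp-33C5 followed with -2.25 ± 0.34 (adjusted p = 0.00215), and cyp-33C2 with -1.77 ± 0.38 (adjusted p = 0.0240), whose call ended without serotonin replicate 3 (0.0841) or loxapine replicate 2 (0.137). With the block 3 more cyp-33C genes were lower, cyp-33C1 (block log2 fold change -2.15 ± 0.47), cyp-33C3 (-0.85 ± 0.24) and cyp-33C7 (-0.63 ± 0.13). Outside that group, cyp-33B1 (-1.66 ± 0.23) and cyp-37B1 (-1.05 ± 0.14) were among the others lower with the block.

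**Figure D3:**
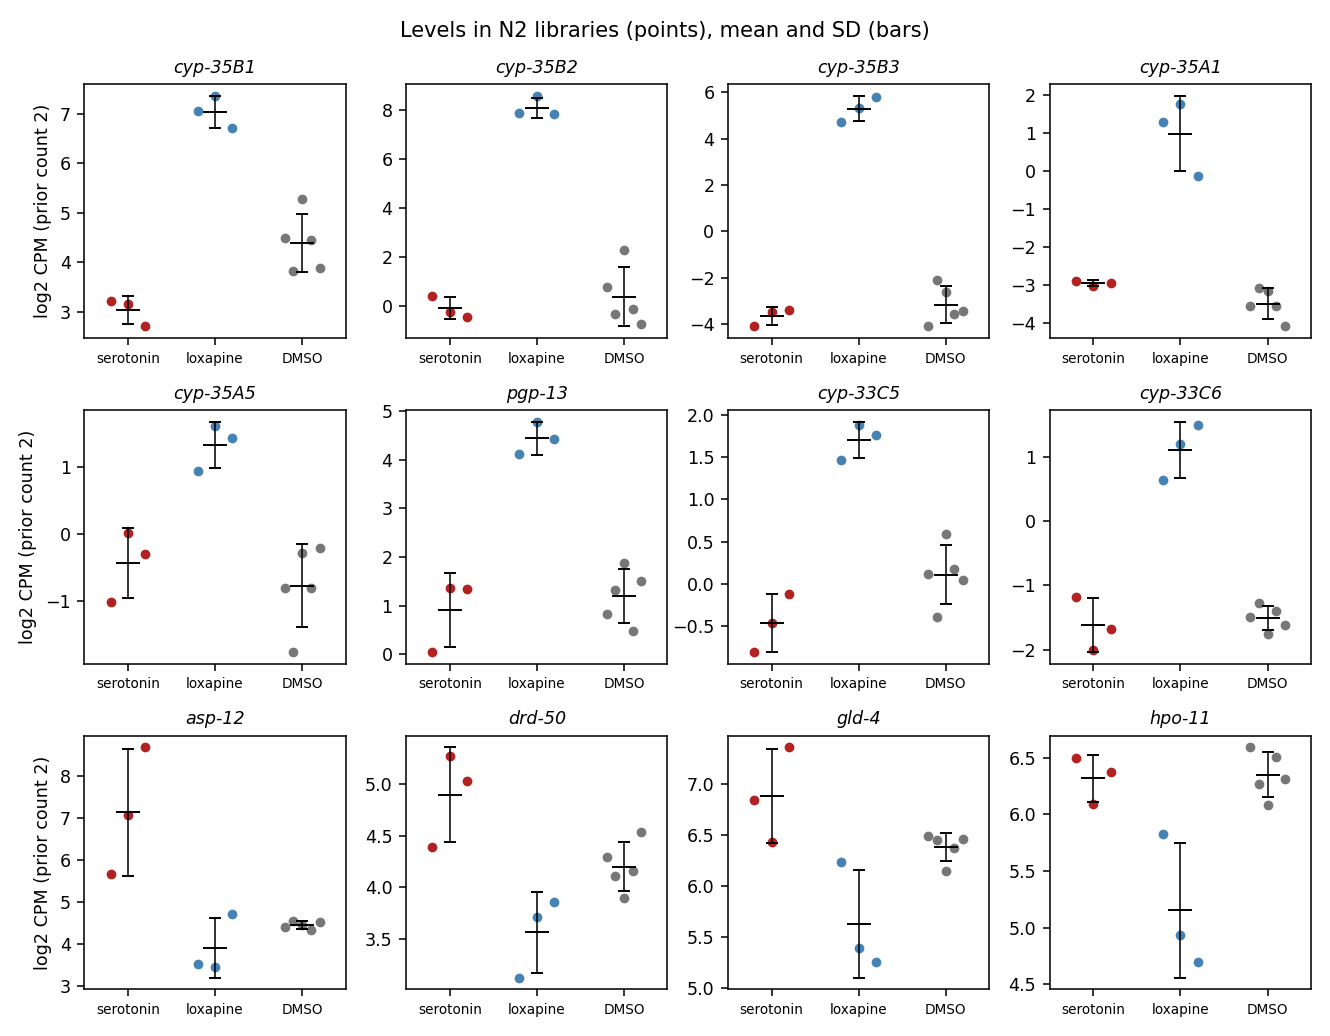
Levels of 12 genes as log2 CPM (prior count 2) in the 3 serotonin (red), 3 loxapine (blue) and 5 DMSO (grey) libraries of N2, with the mean and SD of each group. In the P450 genes and pgp-13 the loxapine libraries stand above both others, while asp-12 is high with serotonin and hpo-11 is low with loxapine.

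Among transporters of the ABC family, 1 of 48 tested was lower and none was higher. This was pgp-13 (X: 12738754 to 12744111), a P-glycoprotein, with 0.973, 2.51 and 2.48 CPM with serotonin, 17.2, 27.4 and 21.4 CPM with loxapine, and 1.34 to 3.62 CPM with DMSO. No loxapine library came near the others (log2 fold change -3.48 ± 0.36, adjusted p = 2.47e-05, or 11.1-fold lower). With the block, the P-glycoprotein gene pgp-14 and the peroxisomal transporter gene pmp-2 were also lower (log2 fold changes without the block of -1.01 and -0.45), and pgp-4 was higher (0.71).

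The UGT genes, which act after the P450s, gave 2 lower and none higher of 63 tested, and 7 lower with the block, with a median log2 fold change of -0.29. The gene ugt-31 had 24.1, 32.8 and 23.1 CPM with serotonin and 43, 53.2 and 34.3 CPM with loxapine, and 37.1 to 49.7 CPM with DMSO (log2 fold change -0.71 ± 0.15, adjusted p = 0.0240). All serotonin libraries lay below the DMSO range, while the loxapine libraries lay below, within and above it. Of 48 glutathione S-transferase genes none passed without the block (median -0.18), with 10 at an unadjusted p under 0.05 and 2 higher by DESeq2, and gst-13 and gst-4 were lower with the block. The catalase genes ctl-2, for the peroxisomal enzyme, and ctl-1, for the cytosolic one, were both lower. Catalase ctl-2 had 88.3, 106 and 101 CPM with serotonin, against 144, 169 and 159 CPM with loxapine and 146 to 158 CPM with DMSO (log2 fold change -0.68 ± 0.08, adjusted p = 0.000173). All serotonin libraries were below both other groups. For ctl-1 the log2 fold change was -0.75 ± 0.14 (adjusted p = 0.0109), and its call ended without loxapine replicate 2 (0.0689). With the block the metallothionein gene mtl-1 was lower (-0.73 ± 0.12, adjusted p = 0.00192, against 0.0959 without it).

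A gene of the same pattern as the P450s, C01G12.5 (II: 14586527 to 14587507), was named after its values were seen. It stood at 0.0512, 0.0635 and 0.0720 CPM with serotonin, 1.18, 1.85 and 2.78 CPM with loxapine, and 0.0813 to 0.264 CPM with DMSO (log2 fold change -4.90 ± 0.60, adjusted p = 0.000173). The uppermost red point of the plot of fold change against level, Y81B9A.3, had a count of 0 in all loxapine libraries and at most 0.179 CPM with serotonin, too few for a fold to be given.

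The 15 lower genes with the largest changes at a mean log2 CPM of at least 2 also held a peptide gene, a lectin gene and a sugar transporter gene. The FMRFamide-like peptide gene flp-8 (X: 14881419 to 14882267) had 4.46, 3.43 and 5.61 CPM with serotonin, against 11.5, 12.3 and 14.2 CPM with loxapine and 8.01 to 10.4 CPM with DMSO. Serotonin lay below and loxapine above the DMSO libraries, with no overlap (log2 fold change -1.50 ± 0.18, adjusted p = 0.000173). The C-type lectin gene clec-5 (III: 4881888 to 4883606) had 9.45, 12.3 and 7.85 CPM with serotonin, 17.9, 27.4 and 28.4 CPM with loxapine, and 37.5 to 42.6 CPM with DMSO (log2 fold change -1.31 ± 0.21, adjusted p = 0.00383). Both compounds were below DMSO here, serotonin more so.

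The same order was seen in ZK105.1 (V: 7713991 to 7714698), one of the highest of these genes, at 71.7, 115 and 135 CPM with serotonin, 149, 295 and 370 CPM with loxapine, and 511 to 543 CPM with DMSO. Its log2 fold change was -1.34 ± 0.26 (adjusted p = 0.0177). C32H11.4 (IV: 12921264 to 12923296) was highest with loxapine instead, with 10.9, 17.6 and 17.9 CPM with serotonin, 37.8, 41.7 and 34.1 CPM with loxapine, and 9.35 to 12.1 CPM with DMSO (log2 fold change -1.30 ± 0.21, adjusted p = 0.00383). PDB1.1 gave -1.35 ± 0.22, with loxapine above DMSO as well. The remaining genes of this group were oac-32 for an acyltransferase-like protein (-1.71 ± 0.30), swt-3 for a SWEET sugar transporter (-1.61 ± 0.36), dlhd-1 (-1.65 ± 0.41), C15A11.7 (-1.36 ± 0.22), the nematode-specific peptide gene nspc-16 (-1.15 ± 0.23), R02C2.7 (-1.12 ± 0.21) and sdz-24 (-1.11 ± 0.28). Leaving out loxapine replicate 2 ended 7 of the 15 calls, loxapine replicate 3 ended 5 and serotonin replicate 3 ended 3. Serotonin replicates 1 and 2 and loxapine replicate 1 ended 1 call each, with an adjusted p of at most 0.227 among all of these.

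Lipid genes were mostly lower with serotonin where they differed. The palmitoyl-CoA desaturase gene fat-5 (V: 17725004 to 17726818) had 52.8, 40.1 and 67.8 CPM with serotonin, 105, 124 and 95.7 CPM with loxapine, and 150 to 184 CPM with DMSO. The 3 groups did not overlap. The log2 fold change was -1.01 ± 0.19 (adjusted p = 0.0121), and the call ended without loxapine replicate 2 (0.0961). The stearoyl-CoA desaturase gene fat-6 was lower with the block (-0.41 ± 0.10, adjusted p = 0.0225, against 0.0509 without it), and its paralog fat-7 gave 0.23 ± 0.31 (adjusted p = 0.716).

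The fatty acid and retinol binding proteins (far) all lay below 0. Of 6 tested, 2 were lower without the block and 4 with it, and the median log2 fold change was -0.65. None was lower under the RLE scaling or with the length correction described below, and 4 were lower with that correction and the block. Their summed level was 285 to 378 CPM with serotonin, 420 to 590 CPM with loxapine and 616 to 840 CPM with DMSO. The gene far-8 gave -0.63 ± 0.13 (adjusted p = 0.0240), which ended without loxapine replicate 2 (0.216) or 3 (0.0681), and far-4 gave -1.68 ± 0.42 (adjusted p = 0.0498). The far-4 call held in 8 of the 18 alternatives. Intracellular lipid binding gave 1 lower of 9, lbp-2, with 346, 520 and 564 CPM with serotonin and 597, 919 and 921 CPM with loxapine (log2 fold change -0.77 ± 0.16, adjusted p = 0.0239). Its call ended without loxapine replicate 2 (0.172) or 3 (0.133). Of 78 genes of β-oxidation and acyl-CoA activation, ctl-2 and the acyl-CoA oxidase gene acox-1.5 (-0.84 ± 0.18, adjusted p = 0.0220) were lower and none was higher. With the block the mitochondrial acyl-CoA synthetase gene acs-2 was higher, with 372, 247 and 138 CPM with serotonin and 127, 135 and 84.4 CPM with loxapine (block log2 fold change 1.10 ± 0.22, adjusted p = 0.0157, against 0.181 without it). Without the block no gene of 21 for fatty acid synthesis, 32 for lipases or 8 in the yolk list passed. An unadjusted p under 0.05 was reached by 4, 10 and 3 of them, and DESeq2 called 1, 0 and 0. The 8 tested genes of the yolk list did not include the yolk protein genes vit-2 and vit-6. Of 17 genes for triglyceride synthesis and storage, only acl-12 passed (-0.42 ± 0.08, adjusted p = 0.00790).

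Genes for secreted transthyretin-like proteins (ttr), a large nematode family, were lower where they differed. Of 50 tested, 6 were lower and none was higher (4 lower under the RLE scaling and 3 with the length correction described below), 17 were lower with the block, and 44 lay below 0, with a median log2 fold change of -0.38. The gene ttr-17 (IV: 11066019 to 11067026) had 26.2, 28.1 and 30.7 CPM with serotonin, against 43.7, 53.1 and 55.9 CPM with loxapine and 66.3 to 98.2 CPM with DMSO (log2 fold change -0.84 ± 0.14, adjusted p = 0.00456). The summed level of the family was 2181 to 2850 CPM with serotonin, 2896 to 3804 CPM with loxapine and 4301 to 5010 CPM with DMSO. The family was thus lowest with serotonin and highest with DMSO, with no overlap between the groups.

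Pharyngeal muscle genes leaned the same way. Of 19 tested, 2 were lower and 7 were lower with the block, none was higher in either, with a median log2 fold change of -0.59. The pharyngeal troponin I gene tni-4 had 21.7, 28.6 and 30.1 CPM with serotonin, 51, 48.9 and 45.6 CPM with loxapine, and 45.5 to 67.0 CPM with DMSO (log2 fold change -0.86 ± 0.16, adjusted p = 0.00955). Its call ended without loxapine replicate 2 (0.0636). The troponin T gene tnt-4, which the body wall muscle list also holds, gave -0.85 ± 0.21 (adjusted p = 0.0498). The tnt-4 call held in 6 of the 18 alternatives, and under the RLE scaling 1 of the 19 genes was lower. With the block the myosin gene myo-5 (-0.88 ± 0.20), the gap junction gene inx-6 (-0.91 ± 0.23), the potassium channel gene exp-2 (-0.73 ± 0.19) and the glutamate-gated chloride channel gene avr-15 (-0.59 ± 0.16) were lower as well. The pharyngeal myosin genes myo-2 and myo-1 gave -0.21 ± 0.27 and -0.30 ± 0.25, and neither passed. The summed level of the 19 genes was 499 to 818 CPM with serotonin, 542 to 719 CPM with loxapine and 805 to 1031 CPM with DMSO, so the sum overlapped between the compounds. Of 8 genes of the pharyngeal gland family phat, 2 were lower, phat-5 (-2.79 ± 0.68) and phat-2 (-1.04 ± 0.26), each with an adjusted p of 0.0498. Both calls ended in 12 of the 18 alternatives, among them the RLE scaling (0.0600 and 0.0693). In RNA of whole animals, fewer cells of a type and less RNA per cell cannot be told apart. Body wall muscle gave 2 lower of 46 and a median of -0.06, with none lower under the RLE scaling or with the length correction described below. The large myosin gene unc-54 gave 0.39 ± 0.36 (adjusted p = 0.566).

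Genes of serotonin signalling itself did not pass without the block. Of 9 amine receptor genes (ser-1 to ser-7, mod-1 and lgc-50), of which ser-2, ser-3 and ser-6 are receptors of tyramine or octopamine, none was higher or lower by edgeR with or without the block or by DESeq2, and 0 had an unadjusted p under 0.05, with log2 fold changes from -0.44 to 0.07 and a median of -0.15. The receptor gene ser-7 had 0.999, 1.59 and 1.51 CPM with serotonin and 1.39, 1.98 and 2.17 CPM with loxapine (log2 fold change -0.44 ± 0.29, adjusted p = 0.409), and ser-5 gave -0.05 ± 0.31. At these levels only large differences could be seen. The genes ser-1, ser-4 and mod-1 gave -0.15 ± 0.22, -0.03 ± 0.20 and -0.34 ± 0.29. The serotonin transporter gene mod-5 gave 0.08 ± 0.19, the vesicular monoamine transporter gene cat-1 gave -0.05 ± 0.23, and the tryptophan hydroxylase gene tph-1, for the rate-limiting step of serotonin synthesis, gave -0.54 ± 0.34 (adjusted p = 0.381). With the block cat-4, for the GTP cyclohydrolase that makes the cofactor of serotonin and dopamine synthesis, was lower (block -0.72 ± 0.18, adjusted p = 0.0251). It had 16.5, 30.0 and 23.5 CPM with serotonin, 30.4, 52.5 and 33 CPM with loxapine, and 18.2 to 28.0 CPM with DMSO. Of 11 further receptor genes for dopamine, octopamine and tyramine, the octopamine receptor gene octr-1 was lower with the block (-0.91 ± 0.23, adjusted p = 0.0270, against 0.0918 without it). The dopamine receptor genes dop-1 and dop-3 gave -0.67 ± 0.32 and -0.16 ± 0.32.

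Neuropeptide genes gave a few lower calls. Of 30 FMRFamide-like peptide genes, 3 were lower (flp-8, flp-18 at -0.69 ± 0.16 and flp-21 at -0.68 ± 0.17) and 27 lay below 0. In C. elegans, the flp-18 and flp-21 peptides are ligands of the receptor NPR-1. The flp-18 call (adjusted p = 0.0397) and the flp-21 call (0.0437) ended in 9 and in 11 of the 18 alternatives. Of 65 other neuropeptide-like genes nlp-64 was lower (-1.15 ± 0.22, adjusted p = 0.0121), and its call ended without loxapine replicate 2 (0.104). None of 37 insulin-like peptide genes passed by edgeR, nor did any of 39 genes of neurotransmission and the synapse, with or without the block or by DESeq2 (medians of -0.05 and -0.14, with 4 and 5 genes at an unadjusted p under 0.05).

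Among the 90 genes that were higher with serotonin, the aspartyl protease gene asp-12 (V: 8269210 to 8272056) stood out by size. It had 50.1, 133 and 408 CPM with serotonin, 11.3, 10.9 and 26.2 CPM with loxapine, and 19.8 to 23.3 CPM with DMSO. Every serotonin library was above all others, but they spanned a wide range. The log2 fold change was 3.61 ± 0.53 (adjusted p = 0.00383), or 12.2-fold, and 2.49 without serotonin replicate 3. The intestinal protease gene asp-1 was higher with the block (1.04 ± 0.28, adjusted p = 0.0476), and so was the cathepsin B-like gene cpr-5 (1.48 ± 0.27, adjusted p = 0.00876). Both missed the threshold without the block (0.167 and 0.0597). Of 11 cathepsin-type cysteine protease genes, none was higher without the block and 1 was lower, cpz-2 (-0.61 ± 0.13, adjusted p = 0.0251). With the block cpr-5 was the 1 higher member, and cpz-2 and cpr-3 were lower.

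The other higher genes differed less. In 12 of the 15 named higher genes, the mean DMSO level (log2 CPM) was nearer to serotonin than to loxapine, against 45 of all 90 and 5600 of the 16431 tested. The gene hpo-11 (I: 7138482 to 7147578) had 90.3, 68 and 82.9 CPM with serotonin, 56.9, 30.6 and 25.8 CPM with loxapine, and 67.8 to 96.4 CPM with DMSO (log2 fold change 1.09 ± 0.23, adjusted p = 0.0240). Serotonin and DMSO overlapped, and all loxapine libraries were below both. The gene gld-4 (I: 9118115 to 9123181), for a cytoplasmic poly(A) polymerase of the germline, had 115, 86.7 and 165 CPM with serotonin, 75.2, 42.0 and 38.1 CPM with loxapine, and 70.9 to 90.3 CPM with DMSO (1.24 ± 0.26, adjusted p = 0.0257). The gene drd-50 (IV: 4117732 to 4119179) had 20.9, 38.7 and 32.5 CPM with serotonin, 8.64, 13.0 and 14.4 CPM with loxapine, and 14.9 to 23.1 CPM with DMSO (1.35 ± 0.23, adjusted p = 0.00561). In drd-50 loxapine lay below DMSO, and serotonin overlapped it at the top.

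The remaining named higher genes were Y92H12BR.7 (1.87 ± 0.46), C05D11.8 (1.28 ± 0.32), F20G4.2 (1.27 ± 0.22), the hexosaminidase gene hex-3 (1.14 ± 0.24), the acetylcholine transporter gene snf-6 (1.07 ± 0.26), scpr-1 (1.03 ± 0.21), fnip-2 (0.98 ± 0.21), maph-1.3 (0.94 ± 0.19), Y39A1A.22 (0.89 ± 0.22), rike-1 (0.89 ± 0.21) and M03C11.3 (0.89 ± 0.19). Leaving out loxapine replicate 2 ended 13 of these 15 calls, serotonin replicate 3 ended 12 and loxapine replicate 3 ended 11, with an adjusted p of at most 0.231. The sizes stayed between 0.62 and 4.15 in all fits without 1 library. Leaving out serotonin replicate 1 or 2 or loxapine replicate 1 ended none of the 15.

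The higher genes were long. Their median exon length was 3446 nucleotides, against 1243.5 for the lower genes and 1293 for all genes tested. With all genes split by length into 5 classes of equal size, 75 of the 90 higher genes and 8 of the 156 lower genes were in the longest class (2182 to 56044 nucleotides), whose median log2 fold change was 0.12 beside 0.03 for all genes. Library by library, the median deviation of the longest class from the mean of the 6 libraries was 0.07, 0.10 and -0.03 with serotonin and -0.00, -0.09 and -0.10 with loxapine. With a per-library length correction, 25 genes were higher and 76 lower, and with the correction and the block 190 and 385. Of the 15 named higher genes, 6 passed with the correction alone and 12 with the block added. The part of transcript length in these calls was not tested further.

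**Figure D4:**
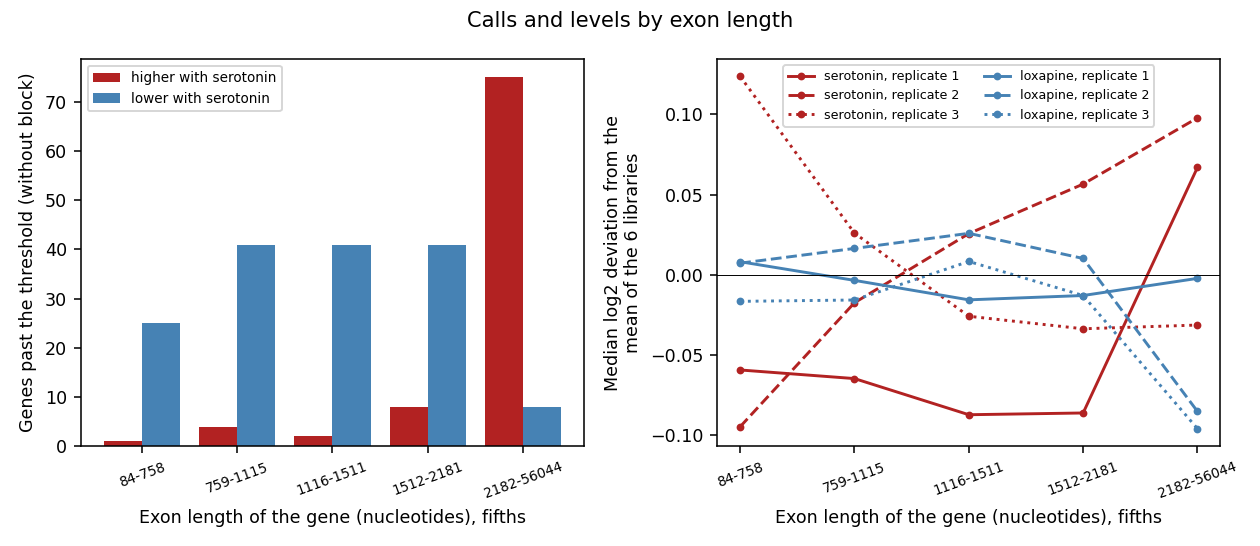
Left, number of genes past the threshold in each of 5 classes of exon length, higher (red) and lower (blue) with serotonin. Right, median log2 deviation of each library from the mean of the 6 libraries in the same classes, where the longest genes hold 75 of the 90 higher calls and loxapine replicates 2 and 3 fall below 0.

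Germline genes lay mostly above 0 and 1 of them passed. In the lists for oocytes and eggshell (37 genes), meiosis (35) and germ granules and germline regulators (42), the median log2 fold changes were 0.32, 0.26 and 0.29, and 34, 35 and 40 of the genes lay above 0. The gene that passed without the block was gld-4, and with the block perm-1 and meg-1 were higher and cpg-7 lower. The gld-4 call ended with the length correction alone (0.0647). An unadjusted p under 0.05 was reached by 21, 8 and 26 genes of these lists, in the same order, beside 3130 of all 16431. DESeq2 called 3, 0 and 4 of them higher. For the germline regulators, the mean deviation was -0.15, 0.16 and 0.40 in the serotonin libraries and -0.08, -0.11 and -0.22 in the loxapine libraries. The serotonin libraries thus spanned a wider range than the difference between the groups, with replicate 3 at the top. Without both libraries of replicate 1, 18 of the 42 were higher (median 0.44), as were 21 of the 37 oocyte genes. In that fit 858 of all 16378 genes tested were higher, beside 90 of 16431 with all libraries. The eggshell proteoglycan gene cpg-3 had 709, 917 and 1374 CPM with serotonin and 725, 785 and 589 CPM with loxapine, against 342 to 433 CPM with DMSO (log2 fold change 0.52 ± 0.19, adjusted p = 0.143). Both compounds were above DMSO in cpg-3, and they overlapped each other. Proteasome genes (33) all lay above 0 with a median of 0.23, with 19 at an unadjusted p under 0.05 and 3 higher by DESeq2. By edgeR without the block, rpn-1, for a subunit of the base of the proteasome's regulatory particle, was higher (0.41 ± 0.10, adjusted p = 0.0485). That call ended in 12 of the 18 alternatives, among them the RLE scaling (0.0508), the length correction (0.141) and leaving out serotonin replicate 3 (0.151), loxapine replicate 2 (0.206) or loxapine replicate 3 (0.188). The mean deviation of the proteasome genes was -0.11, 0.03 and 0.42 in the serotonin libraries and -0.07, -0.07 and -0.19 in the loxapine libraries, so that in replicate 1 serotonin was the lower. The 81 cytosolic ribosomal protein genes had a median of 0.23 with none past the threshold by edgeR, with or without the block, or by DESeq2, and 8 at an unadjusted p under 0.05. All these medians stand beside 0.03 for all genes, or 0.07 under the RLE scaling.

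**Figure D5:**
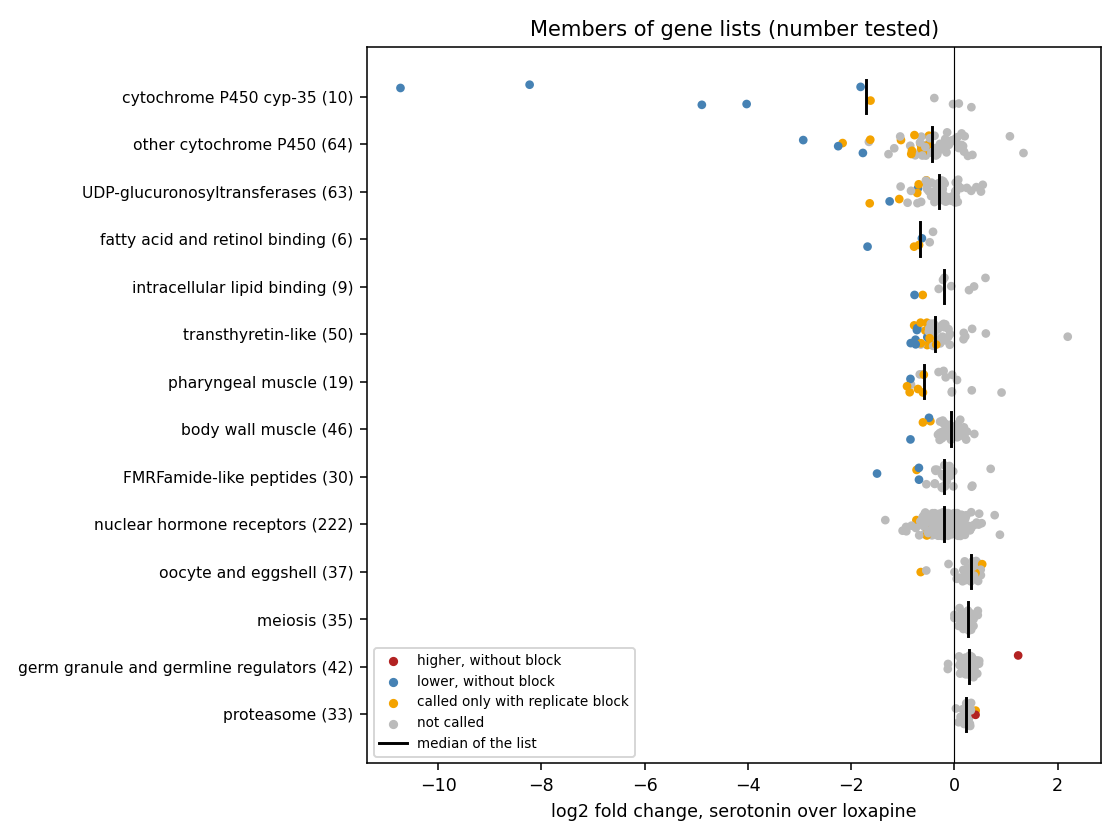
Log2 fold change of serotonin over loxapine for each tested member of 14 gene lists, with the list median as a black bar, calls without the block in red (higher) and blue (lower), and calls made with the block alone in orange. The cyp-35 members reach furthest below 0, with cyp-35B3 a fitted value from 2 counts with serotonin, the transthyretin-like and pharyngeal muscle lists centre below 0, and the germline and proteasome lists centre slightly above 0.

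Among immune genes, 2 of 167 C-type lectin genes were lower, clec-5 and clec-75 (-1.82 ± 0.30, adjusted p = 0.00383), beside 0.949% of all genes. With the block 9 were lower, beside 3.68% of all genes, and 2 were higher. None of 6 invertebrate lysozyme genes, whose products digest bacterial walls, passed without the block, while 2 had an unadjusted p under 0.05 and DESeq2 called 1 lower. With the block ilys-2 (-2.11 ± 0.21, adjusted p = 1.36e-05) and ilys-3 (-1.41 ± 0.22, adjusted p = 0.00143) were lower. The gene ilys-3 had 1.56, 0.540 and 2.70 CPM with serotonin, 4.29, 2.2 and 6.02 CPM with loxapine, and 20.1 to 38.7 CPM with DMSO. Both compounds were thus far below DMSO, and within each replicate number serotonin was below loxapine. Although 5 of the 6 genes lay below 0, the summed level was 475 to 1234 CPM with serotonin and 411 to 572 CPM with loxapine, nearly all of it from ilys-5, at 449, 626 and 1215 CPM with serotonin and 379, 468 and 531 CPM with loxapine (log2 fold change 0.73 ± 0.42, adjusted p = 0.357). The infection-response gene irg-5 was higher with the block (1.35 ± 0.25, adjusted p = 0.00562, against 0.122). None of 45 antimicrobial peptide genes passed without the block (6 at an unadjusted p under 0.05, 1 lower by DESeq2), and the median was -0.29. Of 222 nuclear hormone receptor genes, 172 lay below 0 with a median of -0.19. None passed without the block and 6 were lower with it, beside 3.68% of all genes. An unadjusted p under 0.05 was found in 31, beside 3130 of all 16431 genes, and DESeq2 called 3 lower. The nuclear receptor gene nhr-49, a regulator of fat metabolism, gave 0.00 ± 0.12, and nhr-8 gave -0.60 ± 0.45.

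By chromosome, V held 53 lower genes (1.51% of 3507 tested, beside 0.949% of all genes) and 12 higher, and X held 25 lower (1.04% of 2400) and 3 higher. Chromosomes I and III held 23 and 22 higher genes (0.910% of 2527 and 0.913% of 2410, beside 0.548% of all genes) and 13 and 14 lower. These placements were not tested. The median log2 fold change was -0.07 on V, -0.09 on X and 0.10 on each of I and III.

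The lower genes were also set beside the DMSO level, which took no part in the contrast. Of the 156, the DMSO mean was above both compounds in 85, between them in 65 and below both in 6, against 7994, 3221 and 5216 of the 16431 tested. Among the 90 higher genes it was between the compounds in 73. Genes past the threshold were chosen for a gap between the compounds, and a wide gap leaves more room for DMSO between them. The split over all genes is therefore not a like background for these counts.

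Neither receptor mutant of the series received both compounds, so serotonin cannot be set against loxapine within a mutant, and the mutants' values are given as levels, with no test. In ser-7(vq2) with serotonin (3 libraries), asp-12 averaged 17.3 ± 0.441 CPM (SD), against 197 ± 187 CPM in N2 with serotonin. In ser-5(vq1) with loxapine (2 libraries), cyp-35B2 averaged 239 ± 8.46 CPM, cyp-35B1 136 ± 0.807 CPM and pgp-13 34.3 ± 3.61 CPM. The corresponding means in N2 with loxapine were 283 ± 86.6, 134 ± 29.4 and 22 ± 5.13 CPM.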

How the data were processed

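RNA was sequenced as single reads of 100 nucleotides, per the labels' protocols, from whole animals. The authors deposited 1 table of integer read counts per gene and library, with no scaling. No aligner, counter, strand setting or genome build is given in the sources used here. Positions and exon lengths come from Ensembl release 115 (WBcel235), joined by identifier (19598 of 19598 found). Of the symbols, 1562 were replaced by current names, and 11 had turned into dates. The genes vit-2 and vit-6 were not analysed here.

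In R 4.3.3, edgeR 4.0.16 was used on the counts as deposited: a filter on low counts (minimum count 10, minimum total 15), TMM scaling of the 22 libraries, and a robust quasi-likelihood fit of 7 group means. The contrast was N2 with serotonin minus N2 with loxapine, and Benjamini-Hochberg adjusted p-values under 0.05 over all 16431 genes count as past the threshold. Each SE is the size of the log2 fold change divided by the root of its F. CPM are relative to the TMM-scaled total, and log2 CPM use a prior count of 2.

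The labels' batch tag pairs the libraries. In a check of deviations from the group means, libraries of the same tag had correlations across genes of 0.648, 0.271 and 0.414, and those of different tags from -0.514 to 0.194. Deviations from a group mean cancel out within each gene, so positive values for the same tag push those for different tags down. The values for different tags are therefore no independent baseline. Nothing in the labels states that replicates came from separate cultures. The p-values thus measure only how these samples vary, which may be technical.

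The members and the 63 gene lists were chosen with earlier results of these data known. Named genes are up to 15 higher and 15 lower by size of change, taken from genes past the threshold whose mean log2 CPM reached 2 and whose groups did not overlap, up to 3 past the threshold in each list, and a fixed set of 50 genes, of which 48 were tested, 8 passed and 19 passed with the block. Genes called with the block only, and members given for contrast, were named after their values were seen. The alternatives were the replicate block, the 6 libraries alone with and without it, the series without N2 DMSO, DESeq2 1.42.0, RLE factors, no filter, leaving out each library or pair and, chosen after seeing the data, a length offset (lowess, span 0.3) with and without the block. The procedure was tested on simulated counts with the same spread for every gene and with no replicate or length effect. That test cannot show how the procedure handles such effects in these libraries.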

Additional observations from a re-analysis of the deposited data

Results flagged for a closer look

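The serotonin and loxapine groups held 3 libraries each, too few for a check of single libraries. Among the 5 N2 DMSO libraries, the named genes were checked for a library that stood apart by Dixon's ratio, and 9 had one (8.04% of the genes checked). Chance alone gives about 1 in 20 such groups where libraries are independent, which is not so here, since replicates 2 and 5, and 3 and 6, were near-duplicates. In 7 of the 9 genes the highest library stood apart, with 4.84 CPM of cyp-35B2 (median of the 5 libraries 0.860), 13.5 CPM of dlhd-1 (5.99), 10.4 CPM of flp-8 (8.43), 3.41 CPM of nlp-64 (2.28), 8.73 CPM of the collagen gene col-74 (4.58), 4.17 CPM of cat-1 (3.26) and 75.7 CPM of mtl-1 (59.7). The lowest library stood apart at 16.1 CPM for swt-3 (21.9) and at 146 CPM for pqn-20 (168). In cyp-35B2 even the highest DMSO library was far below the lowest loxapine library, at 230 CPM.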

How the results depend on the processing

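The counts of genes past the threshold (90 higher, 156 lower) changed by over 1.5 times under most alternatives. With the replicate block 291 and 605 passed. The counts were 0 and 8 with the 6 libraries only, 165 and 373 with these and the block, 9 and 68 without the N2 DMSO libraries, and 433 and 318 with DESeq2. They were 84 and 81 under RLE, 61 and 216 with no filter, 25 and 76 with the length offset and 190 and 385 with it and the block. Leaving out 1 library, or both of a replicate number, gave 1 to 1141 higher and 18 to 524 lower. The higher share of the calls, 36.6%, was 11.7% without DMSO libraries, 57.7% with DESeq2, 22% with no filter, 24.8% with the length offset and from 5.26% to 79.4% without single libraries or pairs, and the cause was not tested. The 72 called genes among those named kept their sign under every alternative that gave an adjusted p (for cyp-35A1 17 of the 18, for DESeq2 gave none), and 66 values past the threshold in neither fit changed sign. All 246 calls had the same sign in all 3 pairs of libraries, against 6861 of the 16431 genes tested (41.8%). The called genes were also chosen from these same libraries, so their kept signs are no independent check. The block ended no call among the named genes and added 11. Genes with few or no counts in a group, such as cyp-35B3 and Y81B9A.3, allow no firm fold at this depth.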

Other observations

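Genes outside the lists described above were named here after their values were seen. Among the higher genes, lea-1, for a late embryogenesis abundant protein, had 1059, 1060 and 1258 CPM with serotonin, 724, 589 and 699 CPM with loxapine, and 692 to 757 CPM with DMSO (log2 fold change 0.75 ± 0.12, adjusted p = 0.00383). Serotonin stood above both other groups. The gene ppm-1.D, for a protein phosphatase, had 47.6, 44.9 and 48.3 CPM with serotonin, 34.8, 27.1 and 24.9 CPM with loxapine, and 36.2 to 40.9 CPM with DMSO (0.70 ± 0.11, adjusted p = 0.00243). Here the DMSO libraries lay between the compounds. The gene smg-2, for the helicase of nonsense-mediated mRNA decay, gave 0.88 ± 0.15 (adjusted p = 0.00383), and par-4, for the worm LKB1 kinase, gave 0.85 ± 0.15 (adjusted p = 0.00561).

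Calls were also counted in lists of cuticle and secreted proteins, beside 0.548% higher and 0.949% lower of all genes. Of 150 collagen genes col-74 was lower (-1.82 ± 0.38, adjusted p = 0.0220), none was higher, and 3 were lower with the block. Of 77 hedgehog-related and patched-related genes grl-21 was lower (-2.62 ± 0.52, adjusted p = 0.0191), with 0.819, 0.699 and 0.576 CPM with serotonin, 4.48, 3.44 and 5.13 CPM with loxapine, and 2.88 to 9.21 CPM with DMSO. Of 60 genes for proteins with prion-like repeats, pqn-71 (-3.07 ± 0.62, adjusted p = 0.0212) and pqn-24 (-0.87 ± 0.20, adjusted p = 0.0372) were lower and pqn-20 was higher. The pqn-20 level was 228, 157 and 152 CPM with serotonin, 123, 77.1 and 97 CPM with loxapine, and 146 to 172 CPM with DMSO (0.86 ± 0.17, adjusted p = 0.0175), so that loxapine lay below both others. Among 356 F-box, MATH and BATH genes 1 was higher and 3 were lower, and with the block 4 and 13, with a median log2 fold change of 0.00.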
